A study of Mus musculus with 4 samples.

Results

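The genes described here are the canonical, replication-dependent histone genes of the mouse, chosen as all gene symbols that begin with Hist1h, Hist2h, Hist3h or Hist4h and that had at least 20 UMIs in total over the kept cells. Of 32285 genes in the count matrices, 67 had such a symbol and 60 met the minimum, with 79379 UMIs in sum. The 60 comprised 5 genes for the linker histone H1, 15 for H2A, 15 for H2B, 12 for H3 and 13 for H4. By position, 48 lie in the Hist1 cluster on chromosome 13, 9 in the Hist2 cluster on chromosome 3, 2 in the Hist3 cluster on chromosome 11 and 1, Hist4h4, on chromosome 6. Just inside the minimum were Hist1h4f with 21 UMIs, Hist1h3h with 24 and Hist1h4j with 32, and just outside was Hist1h2ao with 15.

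The libraries came from macrophages of perigonadal white fat (gWAT), sorted as live CD45+Lin-CD11b+CD64+ cells from mice with a conditional knockout of BLIMP1 (CKO), a transcriptional repressor encoded by Prdm1, or from WT mice, and fed either a normal or a high-fat diet (HFD). Single-cell RNA was captured with the 10x Genomics Chromium 3′ workflow, which counts each captured molecule by a unique molecular identifier (UMI). There were 4 libraries, 1 for each of CKO HFD, WT HFD, CKO normal diet and WT normal diet, so a group and its library cannot be told apart and no test of genotype or diet was made. For the Cre driver, the deleted exons, the number of animals behind a library, and their age and sex, nothing was given in the sources used here.

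After filtering, 8731 cells were kept in CKO HFD, 4650 in WT HFD, 4302 in CKO normal diet and 3705 in WT normal diet, with median depths of 3923, 14492.5, 3939 and 4092 UMIs per cell in that order. WT HFD stood apart in depth, and 400 of its cells were over the mitochondrial limit, against 7 to 23 in each of the others. Pairs of libraries shared 2 to 9 cell barcodes. Markers of macrophages (10 genes) were detected in every library and summed to 8739 CPM (UMIs per 1000000) in CKO HFD, 9354 in WT HFD, 4364 in CKO normal diet and 3950 in WT normal diet among cells with a UMI of Mki67 or Top2a. Markers of dendritic cells (10 genes) summed to 49.0, 40.0, 257 and 266 CPM in the same cells and order, so the normal diet libraries held more of them.

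Replication-dependent histone genes supply the proteins that package newly copied DNA: pairs of H2A, H2B, H3 and H4 form the nucleosome core and H1 binds the linker DNA between cores. They lack introns as a rule, lie in clusters, and are transcribed and translated mainly in S phase. Their mRNAs end in a conserved stem-loop bound by SLBP in place of a poly(A) tail, and are degraded when DNA synthesis stops. Some of these genes also yield polyadenylated mRNAs, which have been described in differentiated and non-dividing cells. A 3′ workflow primes on poly(A), so a level given here counts polyadenylated or internally primed copies and need not follow the amount of mRNA from one gene to another. How much of any difference below comes from a change in 3′ end was not tested.

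The 3′ ends are shown because they set what such a workflow can capture. In the GENCODE M21 transcripts (GRCm38), 43 of the 60 members held a match to the histone 3′ stem-loop, against 134 of all 55450 genes (0.242%), and 56 of the 60 had transcripts of 1 exon alone. The matches below are read 5′ to 3′ with the stem-loop in capitals.
Hist1h2ap: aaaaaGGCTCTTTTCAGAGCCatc
Hist1h2ae: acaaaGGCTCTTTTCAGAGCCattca
Hist1h3c: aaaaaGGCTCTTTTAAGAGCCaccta
Hist1h4d: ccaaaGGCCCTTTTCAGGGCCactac
Hist1h1c: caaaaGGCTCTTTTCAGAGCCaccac
Hist3h2a: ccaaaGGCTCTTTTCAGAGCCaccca
Hist2h3c1: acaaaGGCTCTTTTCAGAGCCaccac
Hist4h4: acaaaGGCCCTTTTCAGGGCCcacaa
They lie at chr13:21833026-21833049 (minus strand, Hist1h2ap), chr13:23570663-23570688 (minus, Hist1h2ae), chr13:23745042-23745067 (minus, Hist1h3c), chr13:23581945-23581970 (plus, Hist1h4d), chr13:23739507-23739532 (plus, Hist1h1c), chr11:58955167-58955192 (plus, Hist3h2a), chr3:96247322-96247347 (plus, Hist2h3c1) and chr6:136803993-136804018 (minus, Hist4h4). The annotated transcript ended 3 bases past the stem-loop in Hist1h2ap, 74 in Hist1h3c and 151 in Hist1h2ae. It ran on for 770 bases in Hist1h4d, 840 in Hist1h1c, 1167 in Hist2h3c1, 1643 in Hist3h2a and 2445 in Hist4h4. Hist1h1b, Hist1h2bc, Hist1h2af and Hist2h2be held no match in their annotated transcripts.

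Of the 60 members, 54 were matched to a RefSeq promoter (GRCm38.p6, 250 bases before to 50 after the gene's start). Both strands were searched for the CCAAT box, the TATA box with the letters TATAAA, and the octamer ATTTGCAT. They were also searched for an H1 box with the letters AAACACA, chosen after the sequences had been seen, and no match shown overlaps another. The CCAAT box was present in 45 of the 54 (83.3%), against 37.4% of all 32851 promoters, and in 3 of 12 H4 promoters. The TATA box was present in 33 (61.1%, against 13.6%) and the octamer in 11 (20.4%, against 1.74%), 6 of them of H2A and 5 of H2B genes. The H1 box was present in 4 of 5 H1 promoters and in 7.18% of all promoters. Promoters are shown for a pair of H1 genes and a pair of H2A genes whose levels differ below, with these motifs in capitals.
Hist1h1b: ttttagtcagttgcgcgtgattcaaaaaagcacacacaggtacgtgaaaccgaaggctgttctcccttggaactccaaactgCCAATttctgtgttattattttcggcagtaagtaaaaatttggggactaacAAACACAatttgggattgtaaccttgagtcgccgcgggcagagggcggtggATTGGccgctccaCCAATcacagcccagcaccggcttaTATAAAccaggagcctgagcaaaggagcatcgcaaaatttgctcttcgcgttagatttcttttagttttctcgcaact
Hist1h1c: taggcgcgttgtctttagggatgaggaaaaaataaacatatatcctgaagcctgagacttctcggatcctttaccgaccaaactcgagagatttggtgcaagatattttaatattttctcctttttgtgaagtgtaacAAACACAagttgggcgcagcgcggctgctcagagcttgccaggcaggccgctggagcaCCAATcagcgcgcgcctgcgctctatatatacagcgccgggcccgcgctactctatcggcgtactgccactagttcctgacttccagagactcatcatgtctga
Hist1h2ae: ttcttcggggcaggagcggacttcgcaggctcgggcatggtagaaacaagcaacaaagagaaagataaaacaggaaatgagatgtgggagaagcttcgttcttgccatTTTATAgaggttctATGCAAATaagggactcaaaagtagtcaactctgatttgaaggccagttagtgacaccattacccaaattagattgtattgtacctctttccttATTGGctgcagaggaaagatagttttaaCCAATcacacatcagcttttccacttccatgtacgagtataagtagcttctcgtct
Hist3h2a: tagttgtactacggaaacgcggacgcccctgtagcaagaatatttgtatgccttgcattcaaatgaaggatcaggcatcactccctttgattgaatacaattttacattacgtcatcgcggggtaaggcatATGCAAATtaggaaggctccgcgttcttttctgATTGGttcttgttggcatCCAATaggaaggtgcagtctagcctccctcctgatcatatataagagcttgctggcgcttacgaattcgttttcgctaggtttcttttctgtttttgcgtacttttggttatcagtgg
These are chr13:21780576-21780875 on the minus strand (Hist1h1b, named H1f5 in RefSeq), chr13:23738557-23738856 on the plus strand (Hist1h1c, H1f2), chr13:23571171-23571470 on the minus strand (Hist1h2ae, H2ac8) and chr11:58954435-58954734 on the plus strand (Hist3h2a, H2aw). The search took exact letters, so the similar letters tatata before the starts of Hist1h1c and Hist3h2a are in lower case. Capitals therefore do not show which of these promoters lack a TATA box. The TATA match of Hist1h2ae lies on the opposite strand, in a window that overlaps the promoter window of Hist1h2bg on the plus strand. The matches describe letters in these windows and are not shown to be bound.

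Near-identical copies limit what a single gene's level means. Of the last 400 bases of transcript, at least 50% of the 90-base windows were found in another gene for 24 of the 60 members, and at least 1 window for 42. The values of Hist1h2ap (shared with Hist1h2ao), Hist1h3e, Hist1h2af, Hist1h2ab, Hist2h3c1 (shared with Gm20634) and Hist2h3b (shared with Hist2h3c1) are therefore uncertain. Hist1h1e overlaps Hist1h2be on the same strand, and Hist3h2a overlaps Trim17, so the levels of these pairs are uncertain as well. Whether reads that match more than 1 gene were assigned to 1 of them or left uncounted was not checked.

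Histone mRNA was concentrated in the cells with at least 1 UMI of Mki67 or Top2a, genes of the mitotic chromosome that mark dividing cells. These Mki67/Top2a cells numbered 1159 in CKO HFD (13.3% of cells), 1340 in WT HFD (28.8%), 591 in CKO normal diet (13.7%) and 433 in WT normal diet (11.7%). They held 57.5% of all member UMIs in CKO HFD, 72.3% in WT HFD, 56.0% in CKO normal diet and 52.2% in WT normal diet. A cell is more likely to show a UMI of either gene when it is sequenced more deeply, and after thinning every cell to 2000 UMIs, which left out 1076, 67, 820 and 675 shallower cells in that order, the shares over all kept cells were 8.40%, 13.4%, 7.83% and 6.07%.

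The summed level of the 60 members in Mki67/Top2a cells was 986 CPM in CKO HFD, 1422 in WT HFD, 449 in CKO normal diet and 473 in WT normal diet. In the other cells it was 202 CPM in CKO HFD, 314 in WT HFD, 134 in CKO normal diet and 134 in WT normal diet. Every library thus had more histone mRNA in its Mki67/Top2a cells, by 4.88 times in CKO HFD, 4.53 in WT HFD, 3.36 in CKO normal diet and 3.54 in WT normal diet, and the sets did not overlap. With cells thinned to 2000 UMIs before the split, the level was 1352, 2346, 531 and 780 CPM in Mki67/Top2a cells, against 212, 339, 128 and 137 CPM in the other cells, in the same order.

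Across genes the difference was tested on UMIs summed per library and cell set, with the 4 libraries as blocks (edgeR quasi-likelihood test, Benjamini-Hochberg over 11986 genes with a mean of at least 1 CPM, threshold 0.05). Of the 60 members 44 passed that minimum, 37 of which were called higher in Mki67/Top2a cells, 2 lower and 5 neither, where 14.9% of all genes tested were called higher and 13.1% lower. The 16 members not tested had 21 to 148 UMIs in total. Since a member can pass the minimum through the cells in which it is high, all 60 were also tested with no minimum, which called 54 higher and 2 lower. The share of all genes called without a minimum is not given here. The median log2 fold change of the 44 was 3.60, against -0.02 over all genes tested. As the 4 libraries are of 4 conditions, these p-values measure the spread of the contrast between them.

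**Figure D1:**
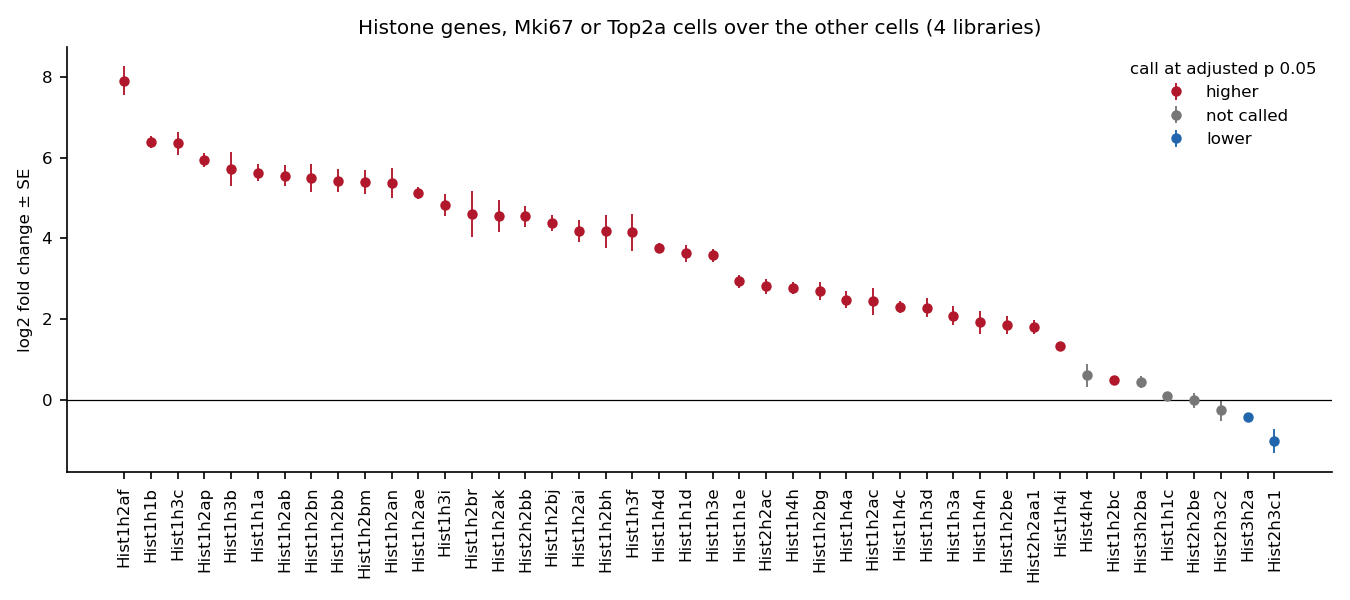
Log2 fold change of Mki67/Top2a cells over the other cells, with its standard error, for the 44 members tested (edgeR, 4 libraries as blocks), in falling order and coloured by the call at an adjusted p of 0.05. The fold changes run from 7.91 for Hist1h2af to 1.34 for Hist1h4i, and the 8 members from Hist4h4 downwards lie between 0.60 and -1.02.

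Among the 5 linker histone genes, 4 were higher in Mki67/Top2a cells and Hist1h1c stood apart. Hist1h1b had 158 CPM in CKO HFD, 262 in WT HFD, 64.4 in CKO normal diet and 62.4 in WT normal diet in Mki67/Top2a cells, against 1.17, 4.02, 0.619 and 0.661 CPM in the other cells of these libraries. No library's other cells came near its Mki67/Top2a cells, and the log2 fold change was 6.39 ± 0.155 (SE, edgeR adjusted p = 2.5e-09). Hist1h1c had 77.4 CPM in CKO HFD, 125 in WT HFD, 40.8 in CKO normal diet and 42.0 in WT normal diet in Mki67/Top2a cells, against 69.0, 109, 41.5 and 41.5 CPM in the other cells. These values lie close together in each library, and the log2 fold change of 0.10 ± 0.059 was not called (edgeR adjusted p = 0.218). It was called at 0.38 when cells were thinned before the split (edgeR adjusted p = 0.0174) and at 0.25 without cells that carry markers of other types (edgeR adjusted p = 0.0361), an alternative chosen after seeing the data.

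Hist1h1e, whose counts are uncertain because it overlaps Hist1h2be, had 74.7 CPM in CKO HFD, 151 in WT HFD, 37.4 in CKO normal diet and 33.8 in WT normal diet in Mki67/Top2a cells, against 7.48, 28.2, 4.39 and 3.12 CPM in the other cells. Hist1h1d had 20.4, 25.3, 9.49 and 12.05 CPM in Mki67/Top2a cells, against 1.23, 2.64, 0.957 and 0.361 CPM in the other cells, in the same order. Both were higher in all 4 libraries, with log2 fold changes of 2.94 ± 0.162 (edgeR adjusted p = 6.4e-07) for Hist1h1e and 3.63 ± 0.208 (edgeR adjusted p = 8.3e-07) for Hist1h1d. Hist1h1a, the remaining linker histone gene, reached 5.63 ± 0.202.

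Of 11 H2A genes tested, which encode the core histone that pairs with H2B, 10 were higher in Mki67/Top2a cells and Hist3h2a was lower. Hist1h2ap had 69.9 CPM in CKO HFD, 165 in WT HFD, 15.9 in CKO normal diet and 26.4 in WT normal diet in Mki67/Top2a cells, against 0.541, 3.32, 0.225 and 0.421 CPM in the other cells. Hist1h2ae had 122, 90.04, 18.5 and 28.0 CPM in Mki67/Top2a cells, against 2.40, 3.09, 0.788 and 0.721 CPM in the other cells, in that order. In both genes the sets were far apart in every library, with log2 fold changes of 5.95 ± 0.180 (edgeR adjusted p = 8.2e-09) for Hist1h2ap and 5.13 ± 0.146 (edgeR adjusted p = 5.7e-09) for Hist1h2ae.

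Hist1h2af had the highest fold change of all members. It had 20.5 CPM in CKO HFD, 9.13 in WT HFD, 14.1 in CKO normal diet and 16.5 in WT normal diet in Mki67/Top2a cells. In the other cells it had 2 UMIs in CKO HFD, 0 in WT HFD, 4 in CKO normal diet and 0 in WT normal diet, where 0 UMIs allow up to 0.0635 CPM in WT HFD and 0.180 CPM in WT normal diet. The fitted log2 fold change of 7.91 ± 0.356 (edgeR adjusted p = 1.4e-07) rests on these few UMIs in the other cells. Hist3h2a, an H2A gene outside the large cluster, had 17.2 CPM in CKO HFD, 18.8 in WT HFD, 14.4 in CKO normal diet and 14.0 in WT normal diet in Mki67/Top2a cells, against 24.1, 25.5, 17.4 and 18.9 CPM in the other cells. Hist3h2a was lower in Mki67/Top2a cells of all 4 libraries, by a log2 fold change of -0.42 ± 0.084 (edgeR adjusted p = 0.00497).

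Of 12 H2B genes tested, 10 were higher in Mki67/Top2a cells, and Hist2h2be and Hist3h2ba were not called. Hist1h2bc had the largest number of UMIs of any H2B gene, and its level differed less between the sets than that of the other H2B genes called higher. It had 73.8 CPM in CKO HFD, 90.2 in WT HFD, 43.3 in CKO normal diet and 39.1 in WT normal diet in Mki67/Top2a cells, against 48.3, 77.4, 25.9 and 27.8 CPM in the other cells. It was higher in Mki67/Top2a cells of each library, with a log2 fold change of 0.50 ± 0.097 (edgeR adjusted p = 0.00449), a small change next to that of Hist1h2bj at 4.38 ± 0.20. With Top2a alone as the marker, Hist1h2bc was no longer called (log2 fold change 0.29, edgeR adjusted p = 0.0994).

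Hist3h2ba had 7.78 CPM in CKO HFD, 4.60 in WT HFD, 4.30 in CKO normal diet and 5.83 in WT normal diet in Mki67/Top2a cells, against 5.86, 2.81, 4.50 and 3.97 CPM in the other cells. Its direction was not the same in all libraries, and it missed the threshold with a log2 fold change of 0.44 ± 0.151 (edgeR adjusted p = 0.0579). It was called under 5 of the alternatives tried, with log2 fold changes of 0.44 with no minimum level, 0.53 without CKO normal diet, 0.64 with at least 2 UMIs of Mki67 and Top2a, 0.53 with Mki67 alone and 0.61 with Top2a alone. Hist2h2be had a log2 fold change of -0.01 ± 0.190 (edgeR adjusted p = 0.970).

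**Figure D2:**
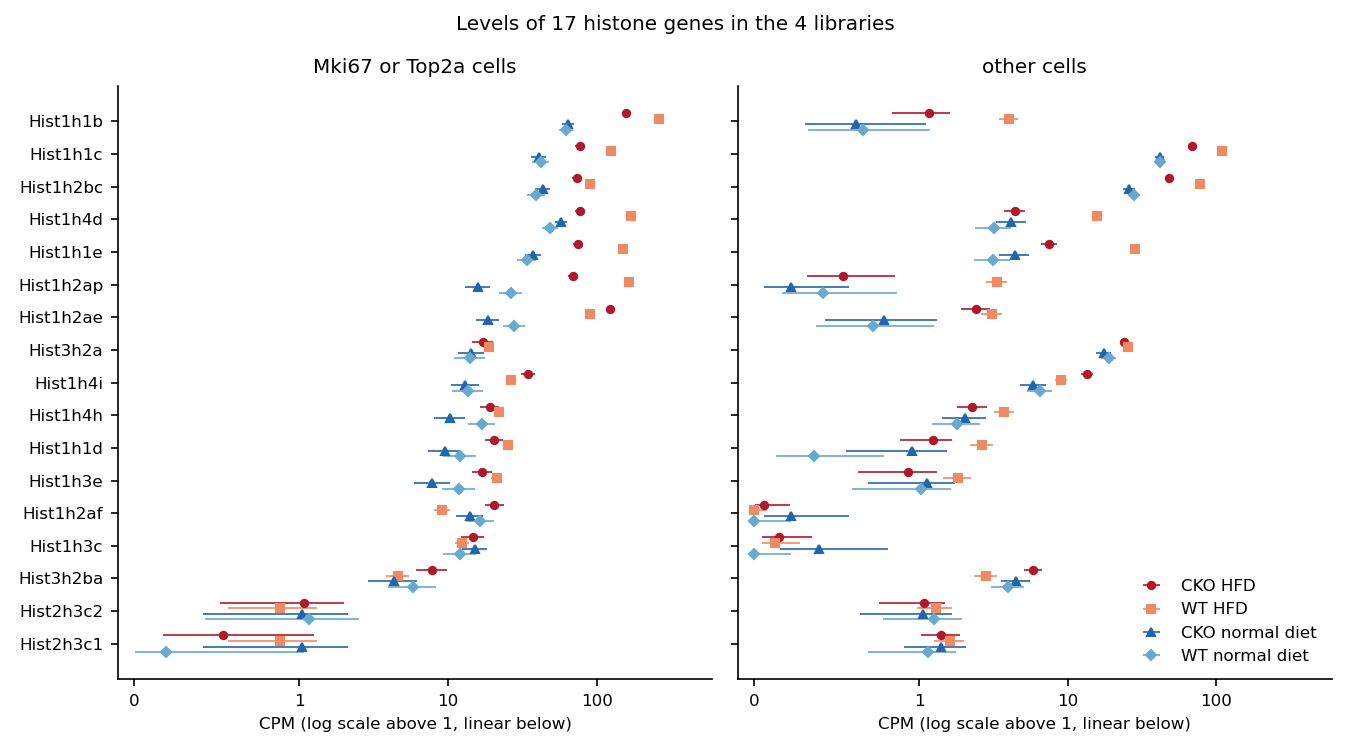
Levels in CPM of the 17 members named by rule, in Mki67/Top2a cells (left) and in the other cells (right) of each library, with exact 95% Poisson intervals for counting error. Hist1h1c, Hist1h2bc and Hist3h2a differ far less between the panels than Hist1h1b, Hist1h2ap and Hist1h2ae, which fall to about 4 CPM or less in the other cells.

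Genes for H3 and H4, the histones that carry most of the regulatory tail modifications, were mostly higher in Mki67/Top2a cells: 7 of 9 H3 genes and 6 of 7 H4 genes tested were called higher, and Hist2h3c1 lower. Hist1h3c had 14.7 CPM in CKO HFD, 12.4 in WT HFD, 15.1 in CKO normal diet and 12.05 in WT normal diet in Mki67/Top2a cells, against 5, 6, 7 and 0 UMIs in the other cells, with a log2 fold change of 6.35 ± 0.279 (edgeR adjusted p = 1.2e-07). Hist1h3e had 16.97, 21.2, 7.86 and 11.9 CPM in Mki67/Top2a cells, against 0.931, 1.82, 1.13 and 1.02 CPM in the other cells, with a log2 fold change of 3.58 ± 0.171. Both genes, which lie in the Hist1 cluster, were thus higher in every library.

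A pair of H3 genes of the Hist2 cluster, Hist2h3c1 and Hist2h3c2, were not higher in Mki67/Top2a cells. Hist2h3c1 had 5 UMIs in CKO HFD (0.540 CPM), 24 in WT HFD (0.883 CPM), 7 in CKO normal diet (1.04 CPM) and 1 in WT normal diet (0.194 CPM) in Mki67/Top2a cells, against 1.41, 1.61, 1.41 and 1.14 CPM in the other cells. The log2 fold change of -1.02 ± 0.298 was called lower (edgeR adjusted p = 0.0307), but not with DESeq2 (adjusted p = 0.106), without CKO HFD (edgeR adjusted p = 0.0992) or without WT normal diet (edgeR adjusted p = 0.0672). Without WT HFD or without CKO normal diet it fell below the minimum level and was not tested, so the call stood in no fit that left out a library, and it rests on few UMIs. Hist2h3c2 had 1.08, 0.883, 1.04 and 1.17 CPM in Mki67/Top2a cells, against 1.08, 1.29, 1.07 and 1.26 CPM in the other cells, and was not called (log2 fold change -0.26 ± 0.256, edgeR adjusted p = 0.483). Hist2h3b, the remaining H3 gene of that cluster, was below the minimum level. Its values are uncertain, as 91.0% of its 90-base windows were found in other genes, mainly Hist2h3c1. It had 15 UMIs in CKO HFD (1.62 CPM), 64 in WT HFD (2.36 CPM), 5 in CKO normal diet (0.742 CPM) and 2 in WT normal diet (0.389 CPM) in Mki67/Top2a cells, against 0.270, 0.148, 0.169 and 0.120 CPM in the other cells, the higher level being in Mki67/Top2a cells of each library.

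Among H4 genes, Hist1h4d had 77.5 CPM in CKO HFD, 170.2 in WT HFD, 57.7 in CKO normal diet and 49.0 in WT normal diet in Mki67/Top2a cells, against 4.38, 15.7, 4.16 and 3.18 CPM in the other cells. Its log2 fold change was 3.76 ± 0.119 (edgeR adjusted p = 1.1e-08), and the sets did not overlap. Hist1h4i changed less: it had 34.7, 26.4, 13.1 and 13.6 CPM in Mki67/Top2a cells, against 13.4, 9.01, 5.85 and 6.49 CPM in the other cells, with a log2 fold change of 1.34 ± 0.087. Hist1h4h had 19.1, 22.0, 10.4 and 16.9 CPM in Mki67/Top2a cells, against 2.28, 3.72, 2.03 and 1.80 CPM in the other cells, with a log2 fold change of 2.76 ± 0.145. Hist4h4, alone on its chromosome, was not called (0.60 ± 0.284, edgeR adjusted p = 0.146).

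Within the Hist1 cluster 34 of 35 members tested were higher in Mki67/Top2a cells, the exception being Hist1h1c, and the median log2 fold change was 4.17. Outside it, 3 of 9 were higher (Hist2h2ac, Hist2h2aa1 and Hist2h2bb), 2 were lower and 4 were not called, with a median of 0.44. The minimum level left 35 of 48 Hist1 members and 6 of 9 Hist2 members tested, so this split covers those alone. Hist2h2ab, Hist2h4 and Hist2h3b were not tested. Calls by cluster in the fit with no minimum, which called more members higher, are not given here. Members whose annotated transcript runs at least 300 bases past the stem-loop had a median log2 fold change of 2.30, with 11 of 16 called higher and 2 lower. Members with fewer than 300 such bases had a median of 3.60, with 15 of 16 higher, and the 12 without a stem-loop match in the annotation had a median of 4.72, with 11 higher. These subsets were described and not tested against each other, and they differ in cluster, level and length.

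**Figure D3:**
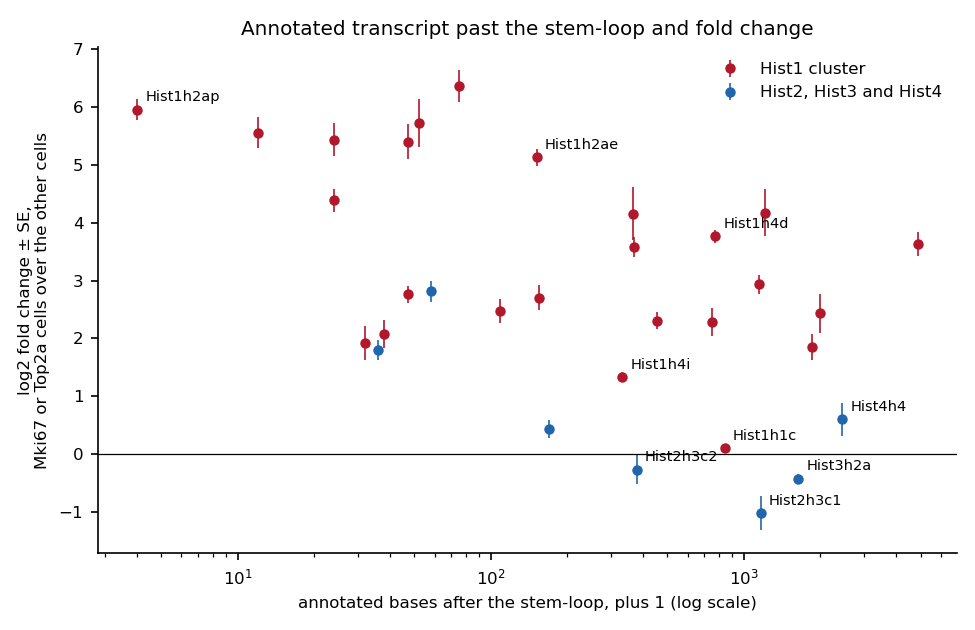
Annotated bases of transcript after the stem-loop (plus 1, log scale) and log2 fold change of Mki67/Top2a cells over the other cells with its standard error, for the 32 members tested that have a stem-loop match, coloured by cluster. Some members near or below a fold change of 0 (Hist1h1c at 840 bases, Hist2h3c1 at 1167, Hist3h2a at 1643) have long annotated tails, but Hist3h2ba, at 0.44, has 169 bases. Members with high fold changes such as Hist1h4d at 770 bases have long tails too.

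Outside the Mki67/Top2a cells a pair of genes made up most of what was captured. Hist1h1c and Hist1h2bc together held 58.0% of member UMIs there in CKO HFD, 59.4% in WT HFD, 50.5% in CKO normal diet and 51.8% in WT normal diet. In Mki67/Top2a cells the same pair held 15.3% in CKO HFD, 15.2% in WT HFD, 18.7% in CKO normal diet and 17.1% in WT normal diet. For the shares of cells below, thinned cells were split again on their thinned counts. That left 733, 625, 337 and 225 Mki67/Top2a cells in the same order. The thinned other cells thus include cells that lost their UMIs of Mki67 or Top2a, and the unthinned shares in brackets are of different sets. After thinning to 2000 UMIs, Hist1h1b was seen in 25.9% of Mki67/Top2a cells in CKO HFD, 33.9% in WT HFD, 13.4% in CKO normal diet and 14.2% in WT normal diet, and in 0.621%, 1.26%, 0.223% and 0.107% of the other cells (31.9%, 32.8%, 23.5% and 20.1%, against 0.462%, 4.50%, 0.269% and 0.306%, unthinned). Hist1h1c was seen after thinning in 16.1%, 22.9%, 6.82% and 10.2% of Mki67/Top2a cells, against 10.99%, 15.7%, 6.65% and 7.59% of the other cells (35.1%, 62.0%, 29.1% and 27.7%, against 19.3%, 49.5%, 13.7% and 15.0%, unthinned). No cell type that should lack histone mRNA was at hand to gauge free RNA, and its part in the low share of Hist1h1b in the other cells was not tested.

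Summed by type, H3 genes had the largest ratio of Mki67/Top2a cells over the other cells in 3 of 4 libraries and H2B genes the smallest in all 4. For H3 genes the ratio of summed CPM was 10.4 in CKO HFD, 9.14 in WT HFD, 5.93 in CKO normal diet and 7.38 in WT normal diet. For H2B genes it was 2.53 in CKO HFD, 1.83 in WT HFD, 1.92 in CKO normal diet and 1.70 in WT normal diet. H2A genes had 8.84, 9.16, 3.53 and 4.45, and H4 genes 6.23, 7.14, 5.48 and 5.79, in the same order. In WT HFD the ratios of H2A (9.16) and H3 (9.14) were all but equal. These sums follow the members with the most UMIs, such as Hist1h2bc with 9815 among H2B genes. Gene by gene the order was different. The median log2 fold change of members tested was 4.57 for H2A, 4.28 for H2B, 3.63 for H1, 3.58 for H3 and 2.31 for H4. H1 genes gave 34.0% to 40.8% of the member UMIs in Mki67/Top2a cells and H3 genes 4.70% to 7.50%, shares of captured UMIs and not of molecules.

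**Figure D4:**
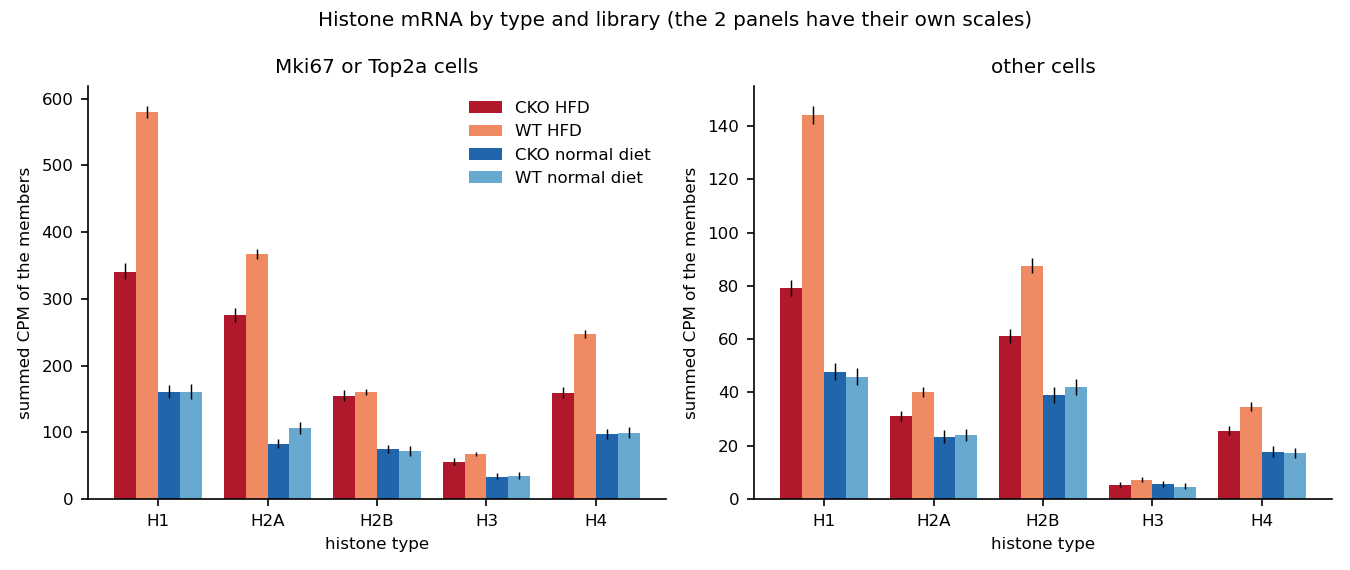
Summed CPM of the members of each histone type, by library, in Mki67/Top2a cells (left) and the other cells (right, with its own scale), with exact 95% Poisson intervals. WT HFD has the highest bar for every type in both panels, and H1 genes have the most captured UMIs in both.

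Genes that work with these histones moved with the same split. Of 13 tested genes for histone mRNA processing 10 were higher in Mki67/Top2a cells and none lower, with a median log2 fold change of 0.65. Slbp, the stem-loop binding protein, was higher by 0.94 ± 0.088 (edgeR adjusted p = 3.3e-05), Eri1, an exonuclease that acts on the stem-loop, by 0.78 ± 0.075, and Cpsf2, a subunit of the 3′ cleavage complex, by 0.25 ± 0.062. Of 14 histone chaperone genes 12 were higher and none lower, with a median of 0.92. Nap1l1, a chaperone of H2A and H2B, was higher by 0.74 ± 0.064, Supt16, a subunit of FACT, by 0.53 ± 0.058, and Nasp, a chaperone of H3 and H4, by 0.99 ± 0.073.

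Replacement histones, which are also made outside S phase from polyadenylated mRNAs, showed smaller changes than the members: 7 of 10 tested were higher, none lower, with a median of 0.87, against 3.60 for the members. The most abundant, H3f3b and H3f3a, which encode the replacement H3, were not called (log2 fold changes of 0.11 ± 0.080 and 0.23 ± 0.085), and H2afz, the H2A variant found at promoters, was higher by 1.27 ± 0.085 (edgeR adjusted p = 2.8e-06). For scale, all 40 genes of an S phase list and all 50 of a list for G2 and M phase were called higher, with medians of 2.26 and 4.17. Lists of other cells and of macrophage states moved the other way: in Mki67/Top2a cells 8 of 10 monocyte markers were lower (median log2 fold change -1.47), 7 of 10 non-classical monocyte markers (-0.96, with 1 higher), 7 of 10 macrophage markers (-0.38), 7 of 10 resident gate markers (-0.60) and 6 of 10 lipid-associated gate markers (-0.51). Of dendritic cell markers 2 of 9 tested were lower and of lymphoid markers 1 of 5. Of fibroblast markers 9 of 10 were lower, summing to 26.5 CPM in CKO HFD, 37.3 in WT HFD, 18.5 in CKO normal diet and 14.8 in WT normal diet, against 224, 703, 41.9 and 41.0 CPM in the other cells. Without cells with at least 3 UMIs of fibroblast, lymphoid or dendritic cell markers, an alternative chosen after seeing the data, 40 of 46 members were higher and 1 lower. In that fit 1688 of 11802 genes tested were called higher and 1317 lower.

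The Mki67/Top2a cells were then divided by whether they held more UMIs of the S phase list (S-rich) or of the G2 and M phase list (G2M-rich). Neither list holds a member, but the S phase list holds Slbp and Chaf1b and the G2 and M phase list holds Cenpa, so these also served to choose the cells. S-rich cells numbered 356 in CKO HFD, 414 in WT HFD, 138 in CKO normal diet and 113 in WT normal diet, and G2M-rich cells 764, 899, 436 and 300. The summed level of members in S-rich cells was 286 CPM in CKO HFD, 472 in WT HFD, 173 in CKO normal diet and 173 in WT normal diet, against 1329, 1907, 533 and 589 CPM in G2M-rich cells. Every library had the lower histone level in its S-rich cells.

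All 50 fold changes of members tested with edgeR were negative, so 0 were higher in S-rich cells at an unadjusted p under 0.05, and DESeq2 called 0 higher. With edgeR 45 of the 50 were called lower, where 8.68% of 11765 genes were called higher and 8.34% lower, with a median log2 fold change of -2.0 against -0.01 over all genes. The 10 members not tested had 21 to 204 UMIs. A member can pass the minimum through the G2M-rich cells in which it is high, so the shared sign holds for these 50 alone. With DESeq2, 25 of 50 were called lower, with edgeR's own filter on low counts 26 of 28, and without WT HFD 29 of 47. The shares of all genes called in these alternatives are not given here. Hist1h2af had the most negative fold change: it had 1.77 CPM in CKO HFD, 0.926 in WT HFD, 2.07 in CKO normal diet and 5.32 in WT normal diet in S-rich cells, against 29.6, 13.3, 17.7 and 20.99 CPM in G2M-rich cells (-3.39 ± 0.254, edgeR adjusted p = 3.3e-08). Hist2h3c2 lay nearest to 0 at -0.07 ± 0.530, and its sign was not the same in every library.

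Hist1h1b had 32.9 CPM in CKO HFD, 83.0 in WT HFD, 20.1 in CKO normal diet and 16.7 in WT normal diet in S-rich cells, against 218, 354, 77.9 and 80.2 CPM in G2M-rich cells (-2.24 ± 0.097, edgeR adjusted p = 2.6e-11). Members with smaller fold changes between Mki67/Top2a cells and the rest also fell here: Hist1h1c by 1.31 ± 0.078 on the log2 scale, Hist1h2bc by 1.48 ± 0.097, Hist3h2a by 0.60 ± 0.139 and Hist3h2ba by 1.16 ± 0.241. Hist3h2a and Hist3h2ba lost their call with DESeq2 and without WT HFD. Of 13 processing genes 7 were called higher in S-rich cells and none lower, and of 14 chaperone genes 9 were higher and none lower, counts that include Slbp and Chaf1b. Nasp, in neither list, was higher by 0.93 ± 0.082. Of 10 replacement histone genes 7, Cenpa among them, were lower, H2afz by 0.52 ± 0.056.

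The cut compares sums of 2 lists in each cell, so the sets are ranges. S-rich cells held less of Mki67 and Top2a themselves, with 113 CPM of Mki67 in CKO HFD, 145 in WT HFD, 120 in CKO normal diet and 112 in WT normal diet, against 388, 543, 301 and 275 CPM in G2M-rich cells. To describe where histone mRNA fell, Mki67/Top2a cells were also sorted by 16 genes of DNA synthesis and 16 of mitosis, lists chosen after the values had been seen, so no test was made. Cells with at least 2 UMIs of both lists numbered 638 in CKO HFD, 630 in WT HFD, 302 in CKO normal diet and 191 in WT normal diet, and held 89.6%, 89.5%, 88.3% and 87.6% of the member UMIs of Mki67/Top2a cells.

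In those cells members summed to 1417 CPM in CKO HFD, 2288 in WT HFD, 617 in CKO normal diet and 761 in WT normal diet. In cells with at least 2 UMIs of synthesis genes and none of mitosis genes the sum was 142, 259, 96.3 and 90.1 CPM, and in cells with mitosis genes alone 500, 692, 368 and 247 CPM. Cells with neither list had 181, 291, 114 and 109 CPM. The histone maximum thus coincided with UMIs of both lists in every library, and cells with synthesis genes alone were no higher than cells with neither. Hist1h1c departed from this order, with 131 CPM in CKO HFD, 205 in WT HFD, 133 in CKO normal diet and 104 in WT normal diet in cells with mitosis genes alone, against 84.4, 140, 38.1 and 46.1 CPM in cells with both. Depth differed between these sets: cells with both lists had 9041, 24001, 14331 and 14665 UMIs on average, and cells with mitosis genes alone 6132, 16914, 6518 and 9622; its part in the order was not tested.

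**Figure D5:**
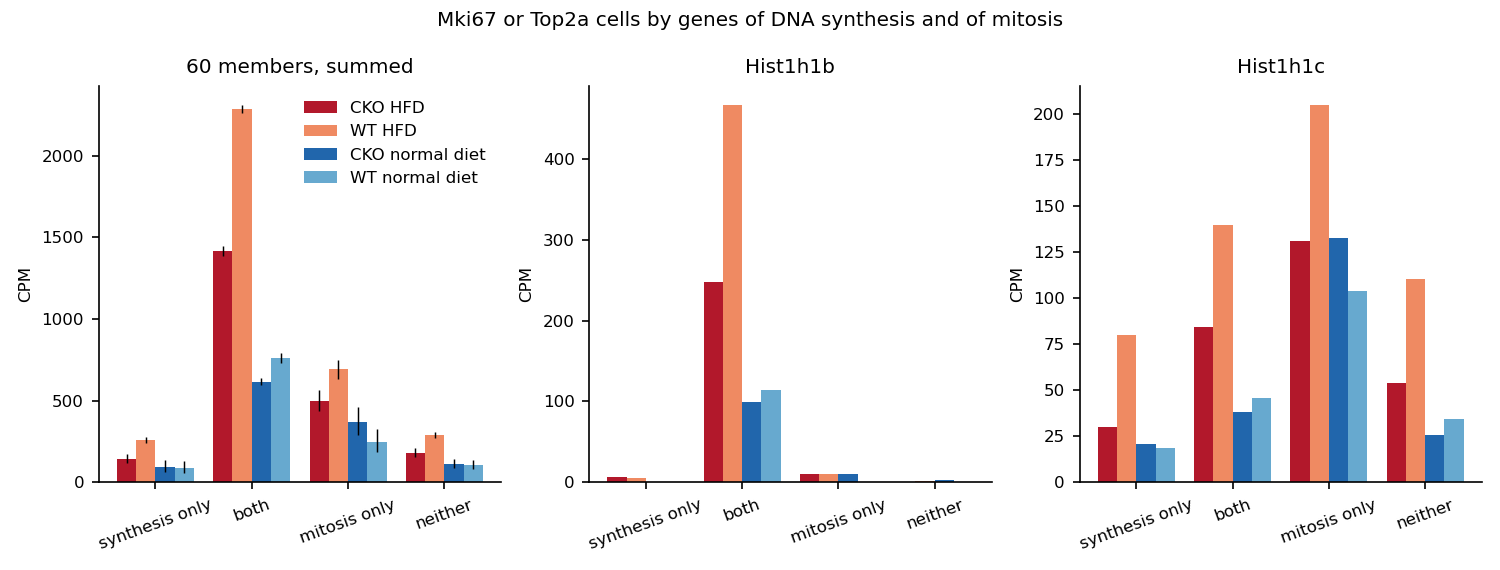
CPM of the 60 members together, of Hist1h1b and of Hist1h1c in Mki67/Top2a cells sorted by UMIs of DNA synthesis and of mitosis genes, by library, with exact 95% Poisson intervals for the sum. The sum and Hist1h1b peak in cells with both lists, and Hist1h1c is highest in cells with mitosis genes alone.

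Among cells with no UMI of Mki67 or Top2a, lipid-associated macrophages were compared with resident macrophages to see whether members differ between kinds of macrophage outside division. Cells were assigned by 10 marker genes each after thinning to 2000 UMIs (Trem2, Gpnmb and others for the lipid-associated gate, Lyve1, Folr2 and others for the resident gate). The lipid-associated gate held 2493 cells in CKO HFD, 1839 in WT HFD, 645 in CKO normal diet and 702 in WT normal diet, and the resident gate 2370, 601, 1380 and 968. Members summed to 219 CPM in CKO HFD, 340.1 in WT HFD, 141 in CKO normal diet and 150 in WT normal diet in the lipid-associated gate, against 184, 274, 134 and 137 CPM in the resident gate. Of 21 members tested, 2 were higher, 4 lower and 15 not called, where 26.8% of 11925 genes were higher and 21.4% lower. Members were thus called no more often than genes in general, in either direction, and the calls below describe single genes. The 39 members not tested had 21 to 695 UMIs in total.

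Hist1h2bc had 66.3 CPM in CKO HFD, 101 in WT HFD, 38.1 in CKO normal diet and 40.0 in WT normal diet in the lipid-associated gate, against 33.1, 46.1, 21.3 and 19.5 CPM in the resident gate. It was higher in the lipid-associated gate of all 4 libraries, with a log2 fold change of 1.16 ± 0.075 (edgeR adjusted p = 4.1e-05). Hist1h1c had 82.4 CPM in CKO HFD, 124 in WT HFD, 40.2 in CKO normal diet and 48.6 in WT normal diet in the lipid-associated gate, against 52.0, 77.6, 42.2 and 40.3 CPM in the resident gate. It was higher in 3 of 4 libraries, with a log2 fold change of 0.57 ± 0.118 (edgeR adjusted p = 0.00596), and was not called without CKO HFD (0.46, edgeR adjusted p = 0.0570).

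Both members of the Hist3 cluster, an H2A and an H2B gene that lie side by side, were lower in the lipid-associated gate. Hist3h2ba had 3.25 CPM in CKO HFD, 1.99 in WT HFD, 2.04 in CKO normal diet and 3.23 in WT normal diet there, against 10.8, 5.26, 6.63 and 6.91 CPM in the resident gate (-1.35 ± 0.187, edgeR adjusted p = 0.000982). Hist3h2a had 19.4, 23.7, 14.1 and 16.5 CPM in the lipid-associated gate, against 30.1, 33.2, 22.2 and 26.3 CPM in the resident gate (-0.45 ± 0.080, edgeR adjusted p = 0.00298). Both genes were lower in the lipid-associated gate of all 4 libraries. Hist1h2be (-1.01 ± 0.304, edgeR adjusted p = 0.0272) and Hist2h2be (-0.59 ± 0.187, edgeR adjusted p = 0.0333), a pair of H2B genes, were also lower in the lipid-associated gate. Hist1h1b was not called (-0.17 ± 0.391), with 0.848, 3.26, 0.815 and 1.25 CPM in the lipid-associated gate, against 1.32, 5.38, 0.577 and 0.395 CPM in the resident gate.

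Other markers differed between the gates as well. Of 10 fibroblast markers 8 were higher in the lipid-associated gate, summing to 399 CPM in CKO HFD, 1016 in WT HFD, 25.7 in CKO normal diet and 72.2 in WT normal diet, against 13.8, 151, 45.7 and 21.7 CPM in the resident gate. Of 13 tested genes of a strict division list 5 were higher, with sums of 41.3, 50.8, 53.8 and 44.5 CPM, against 35.3, 32.7, 34.9 and 25.5 CPM in the resident gate. Lymphoid markers summed to 38.1 to 112 CPM in the lipid-associated gate, against 10.7 to 22.4 CPM in the resident gate, with 1 to 5 of the 10 at 0. Of non-classical monocyte markers 8 of 10 were higher in the lipid-associated gate (median log2 fold change 1.03), of monocyte markers 4 of 8 (1.51) and of dendritic cell markers 4 of 8, with 2 lower (0.44), whereas 7 of 10 macrophage markers were lower and 1 higher (-0.80). The part of these differences in the members' values was not tested. Without cells that carry fibroblast, lymphoid or dendritic cell markers, and likewise without cells with a UMI of the strict division list (alternatives chosen after seeing the data), 2 members were again higher and 4 lower. Of all genes tested, 3066 of 11712 were higher and 2541 lower in the former, and 3035 of 11921 higher and 2469 lower in the latter. With DESeq2, without CKO HFD and without WT normal diet 2 members were lower, and the shares of all genes called in these fits are not given here.

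Libraries differed in the summed histone level of Mki67/Top2a cells, most between diets. In WT, the summed level in Mki67/Top2a cells was 3.01 times higher in HFD (1422 CPM) than in normal diet (473 CPM), with an exact 95% interval of 2.89 to 3.13 for counting error alone. In CKO it was 2.20 times higher (2.11 to 2.29) in HFD (986 CPM) than in normal diet (449 CPM). Between genotypes, CKO HFD had 0.694 times the level of WT HFD (0.678 to 0.710), and CKO normal diet 0.949 times that of WT normal diet (0.90 to 1.0). With cells thinned to 2000 UMIs before the split, the level was 531 CPM in CKO normal diet and 780 in WT normal diet. The ratio of 0.949 thus depended on how cells were split. With 1 library per group these ratios compare libraries, and WT HFD, the library that stood apart in depth, is on 1 side of the largest of them.

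The same ratios among the other cells were 0.645 (0.626 to 0.664) for CKO HFD over WT HFD, 0.999 (0.942 to 1.06) for CKO normal diet over WT normal diet, 2.35 (2.24 to 2.45) for HFD over normal diet in WT and 1.51 (1.44 to 1.59) for HFD over normal diet in CKO. The median of all genes measured moved too, by log2 ratios of -0.18 for CKO over WT under HFD and -0.27 for HFD over normal diet in CKO among Mki67/Top2a cells, and by -0.43 for HFD over normal diet in CKO among the other cells. Genes that span under 5 kb, as nearly all histone genes do, had other medians. Among Mki67/Top2a cells these were 0.16 for CKO over WT under HFD and 0.02 for CKO over WT under normal diet. For HFD over normal diet they were 0.17 in WT and 0.38 in CKO. Among the other cells the medians of short genes were 0.18, -0.005, 0.23 and 0.47 in the same order. Relative to those short genes the log2 ratio of the summed level in Mki67/Top2a cells was -0.69, -0.09, 1.41 and 0.75 in that order, and in the other cells the ratio of HFD over normal diet in CKO came to 0.13.

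Members were also counted past 1.5-fold, on CPM + 1 among genes with a mean of at least 5 CPM in the 2 libraries. In Mki67/Top2a cells, 16 of 23 members measured were higher and 1 lower in HFD than in normal diet in WT, where 11.8% of all genes were higher and 15.7% lower. In CKO, 17 of 23 were higher and none lower in HFD than in normal diet, where 9.69% of all genes were higher and 30.6% lower. For CKO HFD over WT HFD, 3 of 28 were higher (5.05% of all genes) and 10 lower (16.6%), and for CKO normal diet over WT normal diet none of 20 was higher (1.35%) and 2 were lower (1.14%). Among the other cells 4 of 6 members measured were lower in CKO HFD than in WT HFD (17.4% of all genes) and none higher (5.07%), and 4 of 6 were higher in HFD than in normal diet in each genotype (11.8% in WT and 11.7% in CKO). No member passed 1.5-fold there for CKO normal diet over WT normal diet (0.396% of all genes higher, 0.673% lower).

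Single members departed from the sum. For CKO HFD over WT HFD in Mki67/Top2a cells, Hist1h2ab had 3.68 CPM in CKO HFD and 22.6 CPM in WT HFD (ratio 0.163, 0.112 to 0.230), and Hist1h2ap, Hist1h4d and Hist1h1e had ratios of 0.424 (0.389 to 0.460), 0.455 (0.420 to 0.493) and 0.493 (0.454 to 0.535). On the other side, Hist1h2af had a ratio of 2.25 (1.85 to 2.73), Hist3h2ba of 1.69 (1.25 to 2.28) and Hist1h2ae of 1.36 (1.26 to 1.46). Under the normal diet Hist1h2ap (0.601, 0.462 to 0.779) and Hist1h4h (0.614, 0.442 to 0.851) were past 1.5-fold lower in CKO normal diet than in WT normal diet. Hist1h2ab, Hist1h2ap and Hist1h2ae share sequence with other H2A genes, so an effect of how reads of these copies were assigned or lost cannot be told apart from a change of 1 gene.

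For HFD over normal diet, Hist1h2ap had a ratio of 6.25 (5.27 to 7.47) in WT and 4.41 (3.59 to 5.46) in CKO, and Hist1h1b of 4.2 (3.75 to 4.71) in WT and 2.45 (2.20 to 2.73) in CKO. Hist1h2ae had 3.22 (2.72 to 3.83) in WT and 6.59 (5.48 to 8.0) in CKO. Hist1h3c, by contrast, had 1.03 (0.783 to 1.37) in WT and 0.972 (0.746 to 1.27) in CKO, and Hist3h2a 1.34 (1.05 to 1.75) in WT and 1.19 (0.922 to 1.55) in CKO. The 2 diet ratios share no library, whereas each is tied through its libraries to the ratios of genotype. Among members measured in the other cells Hist1h1e had the largest ratios, at 9.01 (6.83 to 12.1) for HFD over normal diet in WT and 0.266 (0.231 to 0.304) for CKO HFD over WT HFD, with 28.2 CPM in WT HFD. WT HFD had the highest level of the 4 libraries for Hist1h1b, Hist1h1c, Hist1h1d, Hist1h1e, Hist1h2ap and Hist1h4d in both cell sets.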

How the data were processed

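The 60 members and all gene lists were chosen with earlier results of these data known. The deposited files hold raw counts of UMIs per gene and cell barcode, written by Cell Ranger 7.0.0 per the file headers, on GRCm38 per the submitters' processing notes. How intron reads were handled is not stated there. The authors' deposited matrices held 8749 cells in CKO HFD, 5054 in WT HFD, 4327 in CKO normal diet and 3737 in WT normal diet. Kept cells had 500 or more UMIs, 300 or more genes and no more than 10% mitochondrial UMIs, with 42551849, 74442649, 24513539 and 21788293 UMIs in that order. Scrublet (scanpy 1.11.5) called 0 doublets at its automatic threshold and so did not work; doublets were kept, and removing the top scores (0.8% per 1000 cells) was an alternative.

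UMIs were summed per library and cell set and scaled to 1000000 (CPM). Intervals at 95% are exact Poisson ones for levels and conditional binomial (Clopper-Pearson) ones for ratios, and cover counting error only. Contrasts of cell sets used edgeR 4.0.16 (quasi-likelihood, TMM, library as a block, Benjamini-Hochberg over all genes tested), with DESeq2 1.42.0 as an alternative, in R 4.3.3. The standard error (SE) given with an edgeR fold change, in text and figures, is approximate. It is the absolute log2 fold change divided by the square root of the F statistic of its test. On simulated counts of the first contrast, with 11979 genes, edgeR recovered 61.0% of genes changed by log2 1 and all of those changed by log2 2. No test was made between genotypes or diets. Members named are the 12 with the highest mean CPM over the 8 sums of library and cell set, the 3 highest and 3 lowest fold changes of the first contrast and the highest and lowest of the other contrasts; of each other list the 3 with the highest mean. Further members (Hist1h1a, Hist1h2ab, Hist1h2be, Hist1h2bj, Hist2h2be, Hist2h3b, Hist4h4 and the 3 called outside the Hist1 cluster) were named after their values were seen. Motifs and stem-loops came from RefSeq promoters and GENCODE M21 transcripts.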

Additional observations from a re-analysis of the deposited data

Results flagged for a closer look

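Among members with a mean of at least 5 CPM in both pairs of libraries, 3 had ratios in opposite directions in the 2 settings of the same contrast with both 95% counting intervals off 1, in Mki67/Top2a cells. Other members had ratios on both sides of 1 with at least 1 interval that held 1. Hist1h2ae had a CKO over WT ratio of 1.36 under HFD and 0.663 under the normal diet. Hist1h4d had a CKO over WT ratio of 0.455 under HFD and 1.18 under the normal diet. Hist1h2af had an HFD over normal diet ratio of 1.46 in CKO and 0.553 in WT. With 1 library per group, none of these differences was tested.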

How the results depend on the processing

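With 1 library per group, counting error is the only error known for genotype and diet, and members with few UMIs carry little weight. The number of members called higher in Mki67/Top2a cells stayed between 31 and 54 under all alternatives, the lowest without the library block. The number called lower was 1 with DESeq2, after thinning before the split, with at least 2 UMIs, with Top2a alone and without cells of other type lists, 0 without the library block, and 1 when any 1 library was left out. Members lower in S-rich cells numbered 26 with filterByExpr, 25 with DESeq2 and 29 to 45 when 1 library was left out. In the lipid-associated gate 1 to 2 were higher and 2 to 3 lower with 1 library left out, and 2 lower with DESeq2. The number of members tested differs between these fits. In the first contrast, thinning called 1185 of 12070 genes higher and 1189 lower, and Top2a alone 2126 of 11974 higher and 1834 lower. The shares of all genes called with DESeq2, filterByExpr, no minimum, no library block or 1 library left out are not given here.

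For the summed level in Mki67/Top2a cells, log2 CKO over WT under HFD (-0.53) became -0.34 with median-of-ratios scaling, -0.79 after thinning, -0.60 with at least 2 UMIs, -0.37 with doublets removed, -0.58 without other cell types, -0.48 without the 3 members with the most UMIs and -0.69 relative to short genes. Under the normal diet (-0.07) it became -0.55 after thinning, -0.19 with at least 2 UMIs and -0.19 without other cell types. HFD over normal diet in WT (1.59) became 1.46 without other cell types, 1.52 without the 3 members and 1.41 relative to short genes; in CKO (1.14) it became 1.40 with median-of-ratios scaling, 1.35 after thinning, 1.27 with doublets removed, 1.07 without other cell types and 0.75 relative to short genes. In the other cells, CKO over WT under HFD (-0.63) became -0.45 with median-of-ratios scaling, -0.68 after thinning, -0.57 without strict division genes, -0.54 without other cell types, -0.56 without the 3 members and -0.81 relative to short genes, and under the normal diet -0.0918 after thinning. HFD over normal diet in WT (1.23) became 1.42, 1.31, 1.10, 0.95 and 1.00 with median-of-ratios scaling, after thinning, without other cell types, without the 3 members and relative to short genes; in CKO (0.60) it became 1.00, 0.72, 0.36 and 0.13 with scaling, after thinning, without the 3 members and relative to short genes. The causes were not tested.

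Log2 fold changes that changed sign were all uncalled. For S-rich over G2M-rich cells, Hist2h3c2 was 0.0225 with DESeq2, 0.0692 with doublets removed and -0.17 to 0.28 with 1 library left out. For the gates, Hist1h1b was 0.10 with DESeq2, Hist1h4d -0.26 to 0.0361, Hist1h1e -0.33 to 0.13, Hist1h4h -0.12 to 0.24 and Hist2h3c1 -0.12 to 0.23 with 1 library left out. Hist1h4h was -0.00366 with doublets removed, and Hist2h3c1 -0.00946 at a mitochondrial limit of 5% and -0.22 without other cell types. Without the library block in the first contrast, Hist1h2bc, Hist1h1e, Hist3h2a, Hist1h4i and Hist2h3c1 lost their call. No pairing of replicates was possible because each group has 1 library and the labels give no replicate numbers that pair libraries across groups. An additive fit over genotype and diet, which would pair libraries by the other factor and leave 1 residual degree of freedom, was not run.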
